A study of Vitis rotundifolia with 12 samples.

Results

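In 64 of 26394 gene models, pedicels of the strongly attached muscadine genotype held far less RNA at maturity than at the pea-size stage, while pedicels of the weakly attached genotype held a similar level at both stages and both genotypes began from a similar pea-size level. The 64 were chosen by a rule on the measured values themselves. In Ga. 6-1-269 (S), all 3 maturity libraries lay below all 3 pea-size libraries, the maturity mean was at most 0.25 of the pea-size mean, and the pea-size mean was at least 5 CPM (counts on the gene model per 1000000 counts on all gene models of the library). In Ga. 12-3-22 (W), the maturity mean was 0.67 to 1.5 times the pea-size mean, and the pea-size means of S and W were within the same bounds of each other. Every ratio had 0.5 CPM added to both means. Levels and differences of the 64 gene models are therefore a description of what was selected. Only libraries left out of the selection bear on it apart from the rule, and they do so only in part.

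RNA was sequenced from pedicels, the stalks that carry the single berries, of muscadine grape, *Vitis rotundifolia*. The 12 libraries fall into 4 groups of 3: mature S pedicels, pea-size S pedicels, mature W pedicels and pea-size W pedicels. S is labelled as strongly attached to its fruit and W as weakly attached, both were grown at 1 site in Florida, and all tissue was flash frozen in liquid nitrogen. Each attachment class is represented by 1 genotype, so that attachment and any other difference between S and W cannot be told apart. A tissue type label that reads mature throughout, even for pea-size samples, was set aside.

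A grape berry is held to its pedicel through an abscission zone, a layer of small cells in which walls loosen and cells separate when the fruit is shed. Shedding is known to follow the balance of auxin, which holds the zone inactive, against ethylene and abscisic acid, and to end with enzymes that digest the pectin and cellulose of the wall. A pedicel also lignifies its vessels and loses chlorophyll as the fruit ripens, so that the RNA of a whole pedicel mixes the zone with vascular and cortical tissue. The gene models are numbered by chromosome and carry no gene names, and 0 of their identifiers occurred in the reference table of grape genes. No function, tissue marker or sequence could therefore be assigned to them, and they are described by chromosome, level and pattern.

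Gene counts per library ranged from 4705119 to 21971736, and the shallowest was a W maturity library. One library stood apart. S maturity replicate 1 had Spearman correlations of 0.836 and 0.817 with S maturity replicates 2 and 3 across the 18439 gene models that passed the filter on low counts, against 0.837 to 0.848 with the pea-size S libraries and 0.849 to 0.883 with the W libraries. Its closest library was thus W maturity replicate 2, although gene models seen in only 1 genotype followed its S label. In a check of the label chosen after the data were seen, there were 9 gene models with at least 5 CPM in the other 5 S libraries and at most 0.2 CPM in the 6 W libraries. Their lowest level in S maturity replicate 1 was 4.37 CPM, and 2 gene models with the opposite pattern had 0 CPM there. In S maturity replicate 1, 30.4% of reads were counted on no gene model, against 21.8% in replicate 2, 11.04% in replicate 3 and 10.6% to 17.6% in the 9 remaining libraries (Wilson 95% intervals reach no further than 0.0296 percentage points on either side and cover counting error only). The part of this difference in the results below was not tested, and values are given with and without the library.

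Selection narrowed in steps. The maturity libraries of S lay below its pea-size libraries in 4221 gene models, the fall was deep enough in 1182 of these, and 991 of those reached the pea-size minimum. W was level between the stages in 410 of the 991, whereas it was below 0.67 in 437 and above 1.5 in 144. Of the 410, 64 had like pea-size levels in the genotypes, 332 were above 1.5 times the W level in pea-size S, and 14 were below 0.67 times it. A fall in S beside a level W was thus in most cases a fall from a higher starting point in S, and the shared starting point kept 64. The mirror rule, a 4-fold or larger rise of S from a shared pea-size level, kept 60 gene models. With the genotypes exchanged, 9 gene models met the rule for a fall and 5 that for a rise in W beside a level S.

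The bounds cut through a continuum. The member nearest to the limit of the S ratio had 0.2477 and the nearest gene model beyond it 0.2502. At the upper bound of the pea-size ratio these values were 1.499 inside and 1.505 outside, and at the lower bound of the W ratio 0.668 and 0.660. The least abundant member had a pea-size S mean of 5.43 CPM, next to 4.36 CPM for the nearest that was left out.

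Together the 64 gene models took 4600, 1036 and 737 CPM in the 3 mature S libraries, against 13111, 14128 and 12577 CPM in the 3 pea-size S libraries. The corresponding sums were 12989, 12848 and 12951 CPM in mature W and 13072, 12706 and 14864 CPM in pea-size W. The mature S libraries lay far below the 9 others, whose sums ranged from 12577 to 14864 CPM. Both follow largely from the rule, and differences between the sums were not tested. As means, mature S held 2124 ± 2149 CPM and pea-size S 13272 ± 788 CPM, and mature W held 12929 ± 73.0 CPM and pea-size W 13547 ± 1155 CPM (SD, n = 3 each). In whole pedicels, fewer cells of a type and less RNA per cell cannot be told apart.

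**Figure D1:**
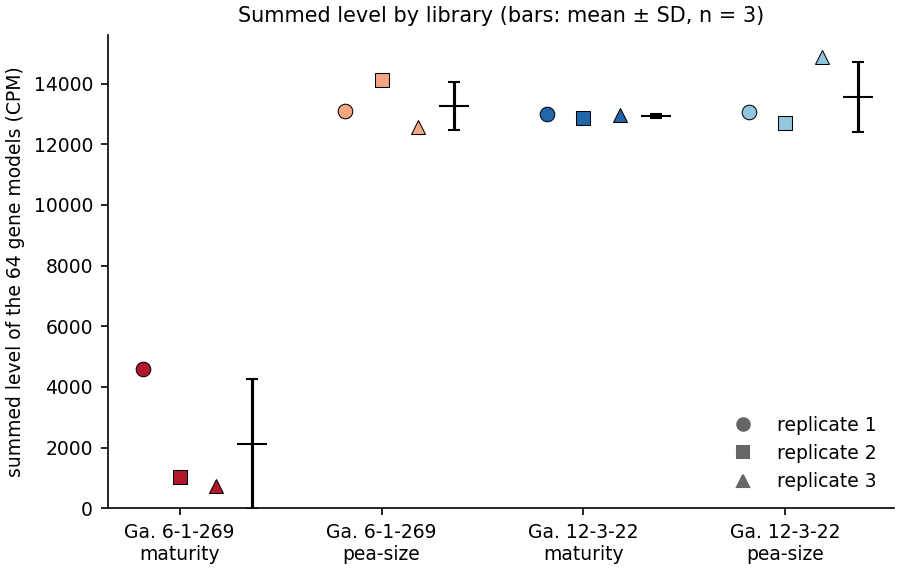
Summed level of the 64 gene models in CPM (vertical axis, from 0) for each of the 12 libraries, by genotype and stage. Marker shapes give the replicate, and the bar beside each group its mean ± SD (ended at 0 in mature S); the 3 mature S libraries lie at 737 to 4600 CPM and the 9 others at 12577 to 14864 CPM.

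The 3 mature S libraries differed among themselves more than any other group. The sum in S maturity replicate 1 was 34.7% of the pea-size S mean, next to 7.81% in replicate 2 and 5.55% in replicate 3. Without the 5 most abundant members, an omission chosen after the data were seen, the shares were 30.5%, 9.36% and 8.36%. For the median member, replicate 1 kept 21.5% of its pea-size S mean, replicate 2 kept 9.29% and replicate 3 kept 10.02%. Replicate 1 was below 25% of the pea-size mean in 38 of the 64 members, and replicates 2 and 3 in 59 each. It was the highest of the 3 in 41 members (64.1%), as against 27.8% of all tested gene models.

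**Figure D2:**
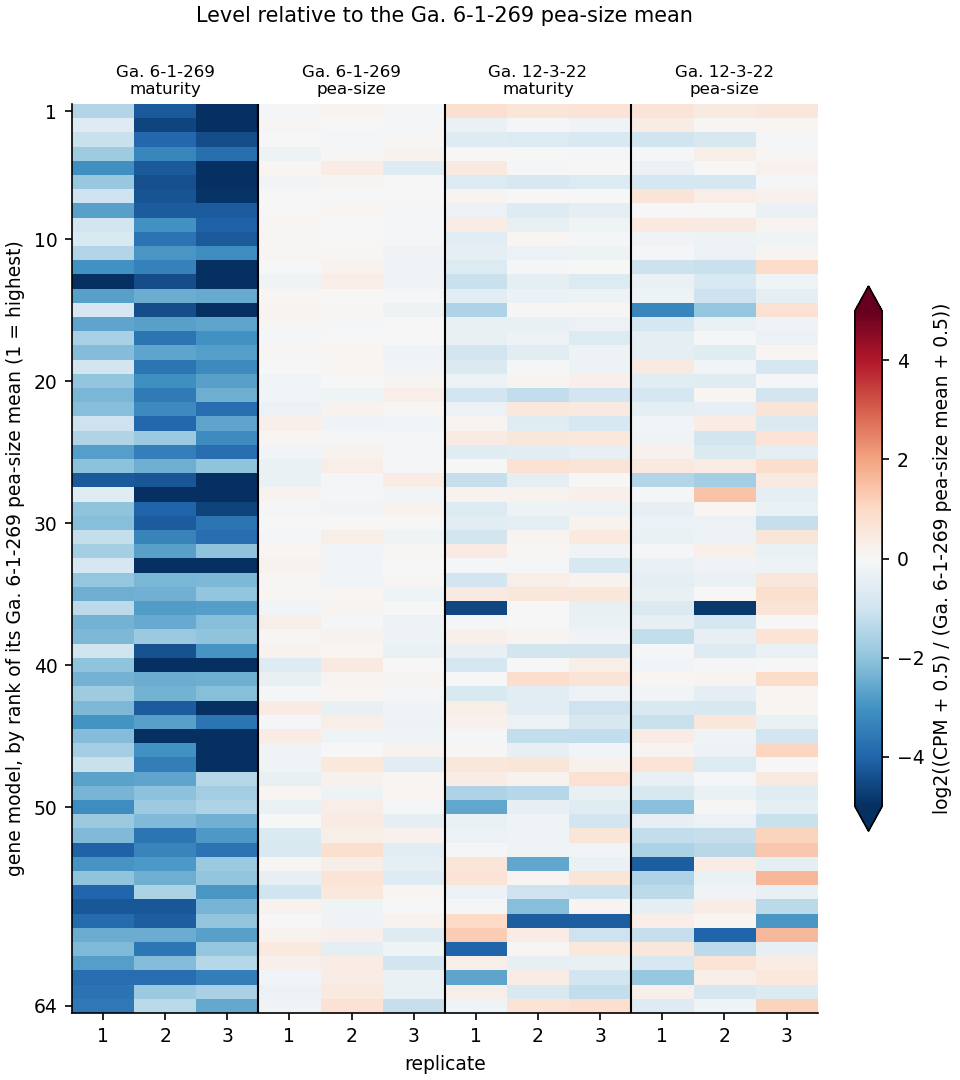
Level of each of the 64 gene models (rows, ordered by pea-size S mean) in each library (columns, by group and replicate), as log2 of the ratio to the pea-size S mean with 0.5 CPM added to both. Blue is below and red above that mean. The mature S columns are blue throughout, palest in replicate 1 over the most abundant rows, and single W libraries drop out in rows near the bottom.

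The most abundant member, evm.model.chr5.582 on chromosome 5, had 715, 108 and 15.1 CPM in mature S, against 1920, 2178 and 1841 CPM in pea-size S. In W it had 3478, 2994 and 3147 CPM at maturity and 3084, 2724 and 2899 CPM at pea-size. The S groups did not overlap, and the mature S libraries spanned more than 10-fold, whereas the 6 W libraries lay within a factor of 1.28. Its log2 fold change (log2FC) in S by edgeR was -2.51 (SE 1.21). Without S maturity replicate 1 it was -4.89 (SE 1.18). In pea-size pedicels all 3 S libraries lay below all 3 W libraries, at 0.682 of the W mean, near the lower bound of the rule.

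The second most abundant member, on chromosome 18, showed the same gradation more steeply. It had 890, 56.4 and 6.64 CPM in mature S and 1440, 1412 and 1289 CPM in pea-size S, next to 1101, 1291 and 1229 CPM in mature W and 1796, 1427 and 1462 CPM in pea-size W. S maturity replicate 1 alone thus lay nearer to the pea-size libraries than to its 2 fellow replicates. This was 1 of 3 members in which mature W lay wholly below pea-size W. The third in abundance, also on chromosome 18, had 458, 65.1 and 45.2 CPM in mature S against 995, 971 and 1029 CPM in pea-size S.

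Of the 10 most abundant members, 7 were at least 4 times higher in S maturity replicate 1 than in the mean of replicates 2 and 3, and the median of that ratio was 7.81. The fourth, on chromosome 8, had 279.5, 99.3 and 70.7 CPM in mature S and 796, 996 and 1091 CPM in pea-size S. The sixth, on chromosome 13, had 230.5, 40.3 and 21.3 CPM in mature S and 781, 923 and 842 CPM in pea-size S. In both, all 3 mature libraries lay below the pea-size libraries, by unequal amounts. Ranks 7, 9 and 10, on chromosomes 11, 6 and 5, kept 221 to 249 CPM in S maturity replicate 1, while their replicates 2 and 3 lay between 16.6 and 52.6 CPM.

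In the other 3, ranks 4, 5 and 8, the ratio was 3.27, 3.53 and 2.72. The fifth, on chromosome 10, had 108.5, 49.2 and 11.6 CPM in mature S against 993, 1181 and 589 CPM in pea-size S. The eighth, on chromosome 6, had 66.1, 23.9 and 24.1 CPM in mature S against 436, 476 and 408 CPM in pea-size S. In both, even the highest mature library lay far below the lowest pea-size library, and the log2FC values in S were -3.76 (SE 0.863) and -3.30 (SE 0.548). The eleventh and twelfth member, on chromosomes 8 and 12, had 117, 42.8 and 37.0 CPM and 35.8, 27.6 and 6.83 CPM in mature S, with 287 to 349 CPM and 265 to 330 CPM in pea-size S.

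By the ratio of the rule, the deepest fall was that of evm.model.chr9.273 on chromosome 9, the thirteenth in abundance. It had 4.55, 12.7 and 2.78 CPM in mature S, against 241, 355 and 246 CPM in pea-size S. In W it had 128, 198 and 175 CPM at maturity and 223, 165 and 243 CPM at pea-size. Mature S lay below every other library, while the 2 W stages overlapped and the 2 genotypes overlapped at pea-size. Its maturity mean in S was 0.0255 of its pea-size mean, with a log2FC of -5.22 (SE 0.654), and its log2FC in W was -0.37 (SE 0.26). The difference between these changes was -4.91 (SE 0.65). In this gene model S maturity replicate 1 did not stand above its fellows, and without it the log2FC in S was -5.08 (SE 0.855).

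The 5 members that followed by that ratio lay on chromosomes 7, 10, 8, 18 and 12. That on chromosome 7 (rank 27 in abundance) had 5.60, 5.29 and 1.09 CPM in mature S and 88.0, 105 and 144 CPM in pea-size S, a ratio of 0.0399. In W it spanned 34.1 to 153 CPM, with both ends of this range in pea-size libraries. The member on chromosome 8 (rank 62) had 0, 0 and 3 counts in mature S and 229 counts over the 3 pea-size S libraries. Scaled by depth, the pooled ratio of these counts was 0.00911 (exact 95% interval 0.00186 to 0.0269). The interval covers counting error only, not the spread between libraries. Its fitted log2FC of -6.67 (SE 1.19) was the lowest of the members. Without the 0.5 CPM added by the rule its estimated fall was thus deeper than that of evm.model.chr9.273 (log2FC -5.22, SE 0.654). Whether the falls differ was not tested. The estimate rests on 3 counts, and the fitted value depends on the prior count. The member on chromosome 18 (rank 53) had 0.285 to 0.814 CPM in mature S and 7.17 to 21.9 CPM in pea-size S, and those on chromosomes 10 and 12 were the fifth and twelfth in abundance. Deep falls thus occurred at high and at low starting levels.

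**Figure D3:**
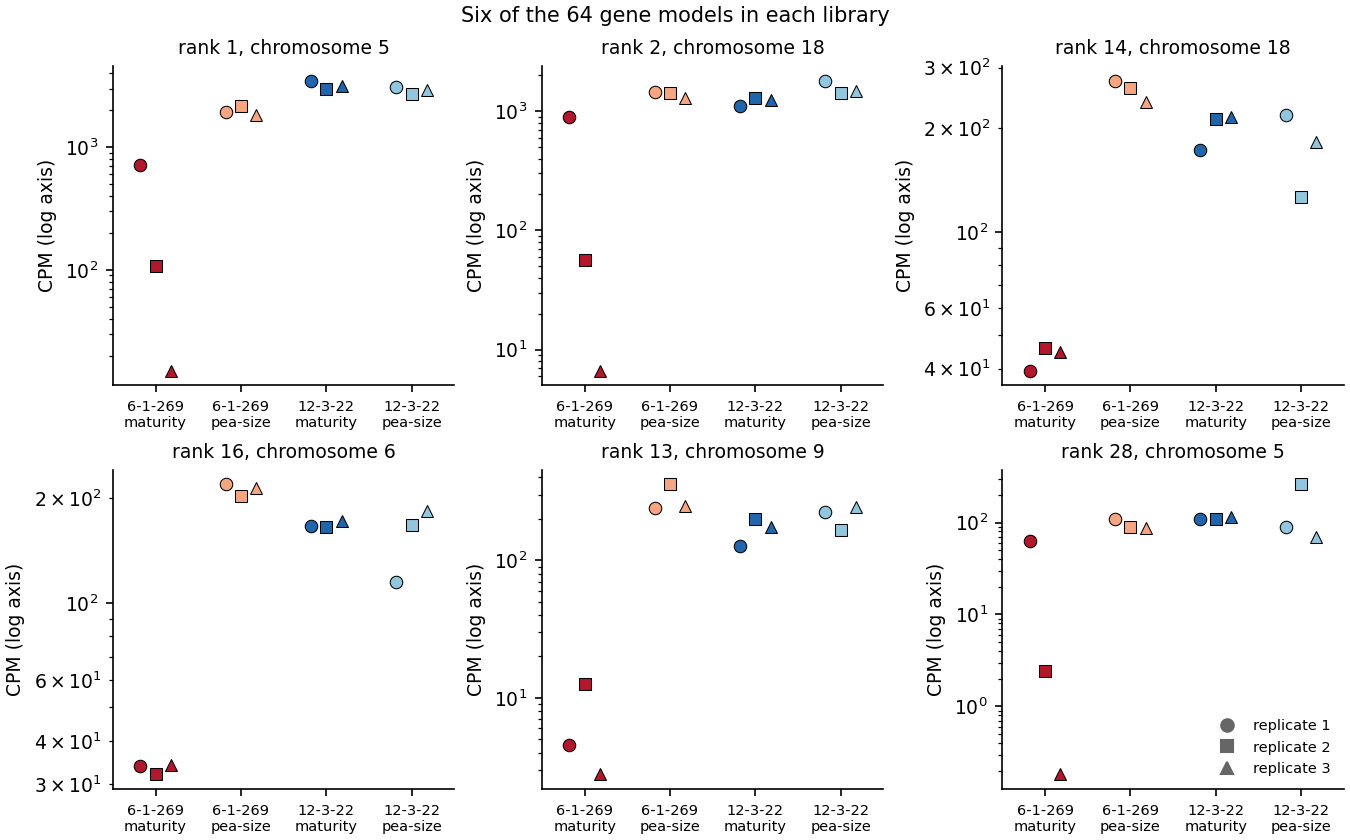
Level in CPM (vertical axes, logarithmic) of 6 of the 64 gene models in the 12 libraries, by genotype and stage. Marker shapes give the replicate. In the panels of ranks 1, 2 and 28 the 3 mature S libraries are spread over more than 10-fold with replicate 1 on top, in those of ranks 14 and 16 they lie together, and in that of rank 13 replicate 2 is the highest.

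The ratio of S maturity replicate 1 to the mean of replicates 2 and 3 varied widely between members, and the sets below were drawn at set values of it after the data were seen. In 20 members replicate 1 was at least 4 times the mean of the other 2, as in 5.21% of all tested gene models, and in 7 of these at least 10 times. Summed over the 20, mature S held 3475, 432 and 207 CPM, against a mean of 7578 CPM in pea-size S. Rank 28, on chromosome 5, was the most extreme, with 63.6, 2.44 and 0.182 CPM in mature S and 88.3 to 110 CPM in pea-size S. The median member of this set kept 47.1% of its pea-size level in replicate 1, 5.19% in replicate 2 and 1.96% in replicate 3.

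In 18 members replicate 1 was instead within 0.67 to 1.5 times the mean of the other 2, as in 35.2% of all tested gene models. Summed over these, mature S held 213, 196 and 209 CPM, against a mean of 1149 CPM in pea-size S. The median member kept 18.5%, 16.8% and 18.9% of its pea-size level, so that the 3 libraries lay together. Rank 14, on chromosome 18, had 39.5, 46.1 and 44.6 CPM in mature S and 275, 263 and 238 CPM in pea-size S. Rank 16, on chromosome 6, had 34.0, 32.0 and 34.0 CPM in mature S and 219, 203 and 214 CPM in pea-size S. None of the 10 most abundant members belonged to this set.

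These sets are parts of a continuous range. Between them, replicate 1 was more than 1.5 and less than 4 times the mean of replicates 2 and 3 in 16 members. It was below 0.67 times that mean in the remaining 10, which included the gene model on chromosome 9 but otherwise lay low in abundance, with a median pea-size S mean of 9.48 CPM. Across the 64 members the ratio of replicate 1 to the others ranged from 0.259 to 35.4 with a median of 1.82.

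**Figure D4:**
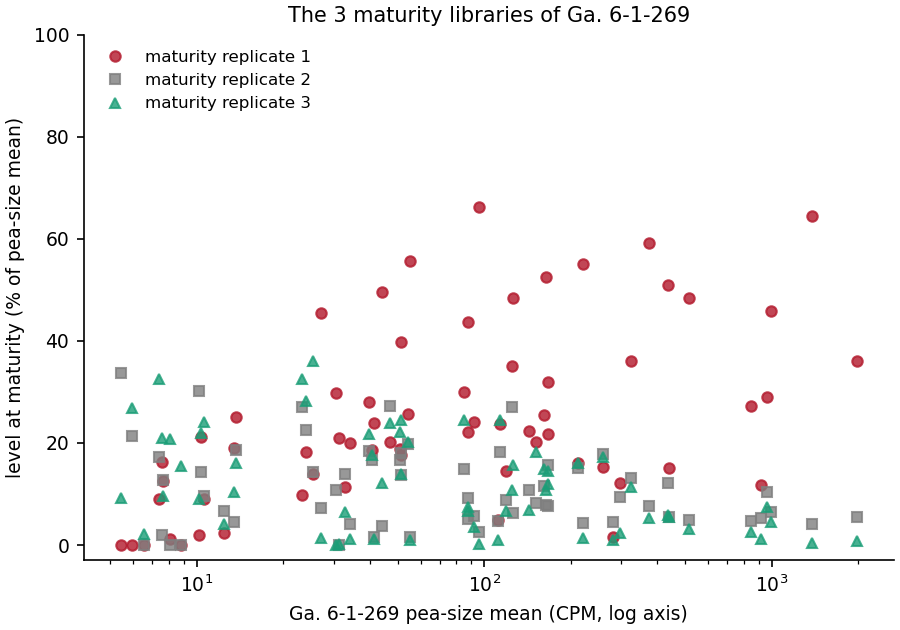
Level of each of the 64 gene models in the 3 mature S libraries, as a percent of its pea-size S mean (vertical axis), against that mean in CPM (horizontal axis, logarithmic). Each gene model has 3 points, 1 per library. Replicate 1 reaches 66.2% and lies above replicates 2 and 3 over most of the abundant gene models, whereas those 2 stay at or below 36%.

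By edgeR's quasi-likelihood test with Benjamini-Hochberg adjustment, 31 of the 64 members were called lower at maturity in S (adjusted p no higher than 0.05, log2FC no smaller in size than 1), where 5.03% of all tested gene models were called lower. Since the rule used this contrast, the count is a description. The median log2FC of the members was -2.34, next to 0.07 over all tested gene models. The 31 called members had a median log2FC of -2.51 and a median SE of 0.424, and the 33 others a median log2FC of -2.23 and a median SE of 0.941. Called and uncalled members thus differed more in the spread of their libraries than in the size of the fall. Of the 18 members in which the 3 mature S libraries lay together 16 were called, and of the 20 with replicate 1 at least 4 times higher 0 were called, although their median log2FC values were -2.29 and -2.08. The median SE was 0.313 in the 18 and 1.02 in the 20. These sets were drawn on the spread that enters the SE, so their counts follow largely from the split. At an unadjusted p below 0.05 the count over all 64 was 48. The share over all tested gene models was not computed at this threshold, here or below. Without S maturity replicate 1, 61 of the 64 were called, where 14.8% of all tested gene models were called lower. Without 1 of the pea-size S libraries, 5 to 8 members were called, where 0.90% to 0.98% of all tested gene models were called lower.

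**Figure D5:**
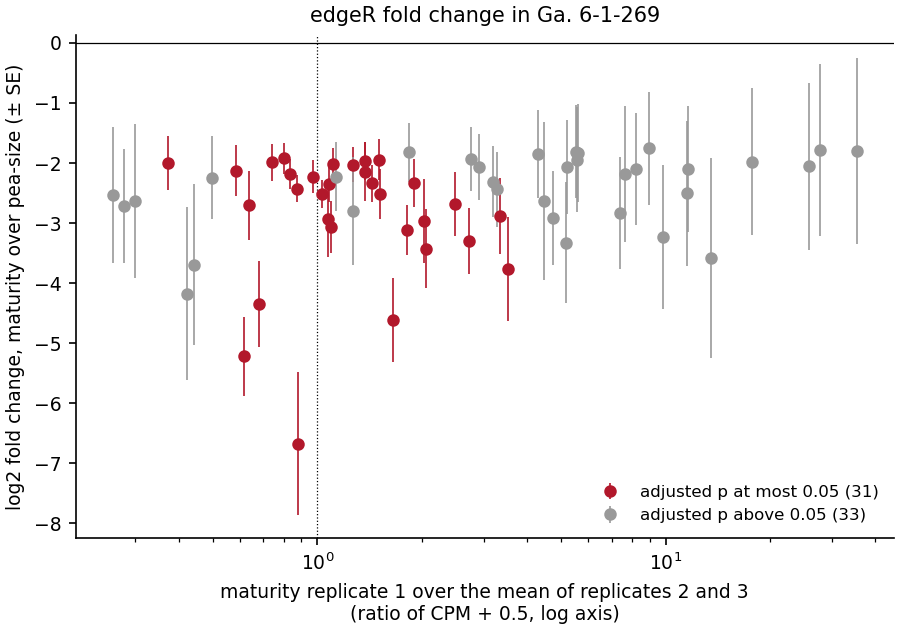
edgeR log2FC of the 64 gene models in S, maturity over pea-size, with its standard error (vertical axis), against the ratio of S maturity replicate 1 to the mean of replicates 2 and 3 (horizontal axis, logarithmic). Red points are the 31 called members and grey points the 33 others. No member with a ratio of 4 or more is red. The median standard error is smallest at ratios of 0.67 to 1.5 (0.313) and larger on both sides, at 0.818 below 0.67 and 1.02 at 4 or more.

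In W, 0 of the 64 members were called between the stages, where 0.938% of all tested gene models were called in either direction, and 0 had an unadjusted p below 0.05. DESeq2 likewise called 0, where it called 1.22% of all tested gene models lower at maturity and 1.04% higher. The rule allowed only members with level W means, so these counts are again a description. Their W log2FC values lay between -0.66 and 0.46 with a median of -0.12. The 2 W stages overlapped in 61 members, and in the 3 others mature W was below pea-size W (4.69% without overlap, as against 15.0% of all tested gene models). Those 3 lay on chromosomes 18, 11 and 10, at ranks 2, 7 and 21.

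A level mean in W hid wide scatter between its libraries in part of the members. The highest of the 6 W libraries was at least 2 times the lowest in 38 members, at least 5 times in 12 and at least 10 times in 6. The same shares over all tested gene models were not computed, so the scatter is not shown to be particular to the members. Computed with 0.5 CPM added to both, this ratio had a median of 2.26 and reached 49.7. Of the 12 members at or above 5, 10 were among the 22 least abundant. Rank 36, on chromosome 1, had 1.70, 51.7 and 39.3 CPM in mature W and 30.5, 1.33 and 80.1 CPM in pea-size W. Rank 58, on chromosome 2, had 16.6, 0 and 0 CPM in mature W and 10.4, 8.72 and 0.649 CPM in pea-size W. Rank 36 was near 0 in 1 library of each W stage, and rank 58 was at 0 in 2 mature W libraries and low in 1 pea-size W library, while the stage means still lay within the bounds of the rule. Rank 15, on chromosome 2, was the most abundant case, with 74.6, 230 and 230 CPM in mature W and 22.8, 57.5 and 373 CPM in pea-size W.

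W pea-size replicate 3 was the highest of the 6 W libraries in 26 of the 64 members, more often than any other. W pea-size replicate 1 and W maturity replicate 1 were the lowest in 17 and 16. For these counts, too, no share over all tested gene models was computed. Among the 10 most abundant members the W libraries lay closer, and the median of highest over lowest was 1.61. For evm.model.chr5.582 and the fourth member on chromosome 8 it was 1.28 in each.

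At pea-size, 0 of the 64 members were called between the genotypes (4.98% of all tested gene models). Only 1 had an unadjusted p below 0.05, with no share over all tested gene models computed. DESeq2 called 0, where it called 4.27% of all tested gene models lower in S and 6.63% higher. It gave no adjusted p to 8 of the 64, among them evm.model.chr5.582. The S and W libraries overlapped in 52 members. S lay wholly above W in 8 and wholly below W in 4, so that 18.8% of members were without overlap, as against 34.6% of all tested gene models. The shared starting level was thus shared within bounds of the rule, not equal. Its ratio of S to W had a median of 1.09 and was above 1 in 43 members. The 8 with higher S included ranks 3, 10, 14 and 16, and the 4 with lower S included evm.model.chr5.582.

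At maturity, all 3 S libraries lay below all 3 W libraries in 58 of the 64 members, as in 12.9% of all tested gene models. In the other 6 the genotypes overlapped, and in 0 did S lie above. edgeR called 33 members lower in mature S, where 3.11% of all tested gene models were called. The mean of mature S was 0.0428 to 0.491 times that of mature W, with a median of 0.186. The smallest of these ratios was that of evm.model.chr9.273, whose log2 difference between the genotypes at maturity was -4.64 (SE 0.507). The 6 members with overlap lay at ranks 15, 36, 50, 54, 58 and 60, and each had at least 1 W maturity library far below the others.

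The change in S was set against that in W through the stage by genotype interaction. The interaction was called in 18 of the 64 members, all with the more negative change in S, where 1.29% of all tested gene models were called in that direction. Its median over the members was -2.50, and it was below 0 in all 64, as the rule requires of nearly any member. At an unadjusted p below 0.05 the count was 38, with no share over all tested gene models computed. Of the 18 members whose 3 mature S libraries lay together 8 were called, and of the 20 with replicate 1 at least 4 times higher 0 were called. Because the sets were drawn on the spread of the mature S libraries, these counts too follow largely from the split. Without S maturity replicate 1, 47 of the 64 were called, where 6.12% of all tested gene models were called.

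Whether the pattern held in a library that had not taken part in the selection was read by leaving out each S library in turn and selecting anew on the 11 others. With a pea-size S library left out, 64 to 67 gene models were selected, and in all of them that library lay above the mature S libraries, as against 32.3% to 34.7% of all tested gene models. With S maturity replicate 2 left out, all 53 selected gene models lay below the pea-size S libraries in it (41.96% of all tested), and with replicate 3 left out, 55 of 58 did (34.3% of all tested). With S maturity replicate 1 left out, 204 gene models were selected, but only 109 of them, 53.4%, lay below the pea-size S libraries in it, as against 50.7% of all tested gene models. Their median level there was 73.4% of the pea-size S mean, and 15.2% met the limit of 0.25 on the S ratio in it, as did 14.1% of all tested gene models. The fall thus recurred in 2 of the 3 mature S libraries, and in replicate 1 it was seen about as often as over all gene models. The pea-size libraries took part in both the selection and the reading, so these shares are not free of the rule.

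The same reading in W asked whether a left-out library lay within 0.67 to 1.5 times the mean of the other stage. It did so for 78.5% of the gene models selected without W maturity replicate 2 (57.0% of all tested) and for 70.1% of those selected without W maturity replicate 3 (56.3% of all tested). Without W maturity replicate 1 the share was 58.1% (42.9% of all tested), without W pea-size replicate 1 it was 55.9% (50.01% of all tested), and without W pea-size replicate 2 it was 52.2% (46.3% of all tested). It was 51.7% for W pea-size replicate 3 (57.4% of all tested), where the selected gene models lay at a median of 111.8% of the other stage's mean. The share was thus above that of all tested gene models for 5 of the 6 W libraries, by less than in the S libraries other than S maturity replicate 1.

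The 64 gene models lay on 18 of the 20 chromosomes, with 7 on chromosome 18 and 6 each on chromosomes 6 and 8. Chromosomes 15 and 17 held none. Per tested gene model the share was highest on chromosome 6, at 0.595%, and lowest among chromosomes with a member on chromosome 4, at 0.0956%. Only 1 pair had identifier numbers within 10 of each other, ranks 36 and 29 on chromosome 1, and 4 pairs were within 50. Those neighbours did not share a pattern in W: rank 29 had 57.0 to 97.2 CPM over the 6 W libraries, whereas rank 36 was near 0 in 2 of them. Identifier numbers stand for order only if they follow position, which the files do not state.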

How the data were processed

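Pedicel RNA of 4 groups of 3 libraries was sequenced from directional libraries. The authors trimmed the reads, mapped them with STAR to the 'Noble' muscadine genome, removed duplicates and deposited whole-number read counts per gene model from HTSeq, 1 file per sample. Each file lists 26394 gene models and 5 summary entries, which were left out of library totals and held 15.2% to 34.7% of reads. Whether counting used strand is not given in the sources used here, so reads of overlapping or antisense gene models may be shared. Gene counts ranged from 4705119 to 21971736 per library.

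Genotype and stage followed the samples' labels. CPM were computed from the counts, and the 64 members followed from the rule. Tests used R 4.3.3 with edgeR 4.0.16 (TMM scaling, robust quasi-likelihood F test, Benjamini-Hochberg adjustment) on the 18439 gene models that passed filterByExpr (minimum count 10, minimum total 15). Changes between stages were fitted on the 6 libraries of each genotype, and the interaction and the genotype differences on the 12 libraries together, each group having its own mean. Standard errors were derived from each log2FC and its F statistic. Tests ran over all these gene models, and the steps were tested on simulated data. DESeq2 1.42.0, other scalings, filters, rule limits, a replicate block and leaving out each library were tried as alternatives. Python 3.11.15 with pandas 2.3.3, SciPy 1.17.1 and matplotlib 3.10.9 was used for the rest. P-values cover the spread between the 3 samples of a group.

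The rule, the members and the alternatives were chosen with earlier results of these data known. Because identifiers could not be paired with names, 2 were printed: the called member with the largest edgeR fall in S that averaged 50 counts or more in the 6 S libraries (called: adjusted p no higher than 0.05, log2FC no smaller in size than 1), and the most abundant other member at pea-size in S. The members with the 12 highest pea-size S means and the 6 with the largest falls are described by rank and chromosome. The members described otherwise (ranks 14, 15, 16, 28, 29, 36 and 58) were chosen after their values were seen.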

Additional observations from a re-analysis of the deposited data

Results flagged for a closer look

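By the interaction test 1.29% of all tested gene models were called with the more negative change in S (edgeR, adjusted p of at most 0.05). The change between the stages differed in that way between the genotypes in 18 of the 64 members. Among them was evm.model.chr9.273, with 4.55, 12.7 and 2.78 CPM in mature S and 241, 355 and 246 CPM in pea-size S, and an interaction of -4.91 on the log2 scale (SE 0.65). Since the rule chose the members for a fall in S beside a level W, these values describe the choice and are no independent evidence of a difference.

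Reads that fell on no gene model, which no comparison used, made up 30.4% of S maturity replicate 1 and 21.8% of S maturity replicate 2, above the 14.6% of the highest pea-size S library. In the same 2 libraries 1 gene model on chromosome 2, not a member, took 12.3% and 6.94% of the gene counts. It took 0.385% in S maturity replicate 3 and 0.218% to 3.28% in the pea-size S and the W libraries. The part of either in the levels of the members was not tested.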

How the results depend on the processing

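The number of members depended on the rule's own limits: 373 with a largest S ratio of 0.5, 16 with a stricter S ratio and 27 with a window that began at 0.8, against 64. It was 50 with TMM library sizes (42 of the 64 shared), 45 with DESeq2 size factors (41 shared) and 88 with group medians (36 shared). Leaving out 1 library gave 53 to 204 members, with 204 (57 shared) without S maturity replicate 1. Members called lower in mature S numbered 31 (5.03% of all tested gene models), 46 with DESeq2 (9.13% of all), which gave 9 no adjusted p, and 5 to 61 without 1 S library: 61 and 20 without S maturity replicates 1 and 2, and 8, 5 and 6 without the pea-size S replicates 1, 2 and 3, where calls over all gene models moved likewise (14.8%, 2.25%, and 0.90% to 0.98%). Called interactions numbered 18 (1.29% of all tested gene models), and 30 with DESeq2 (2.96% of all). They numbered 9 to 47 without 1 library, with 47 without S maturity replicate 1 (6.12% of all) and 9 to 11 (0.52% to 0.75% of all) without S maturity replicate 2, any pea-size S library, W maturity replicate 2 or 3, or W pea-size replicate 1. Members called lower in S than in W at maturity numbered 33, and 23 to 52 without 1 library, with 52 without S maturity replicate 1 (10.05% of all, against 3.11%). In W and at pea-size 0 members were called by edgeR under every alternative run and 0 by DESeq2. DESeq2 called 1.22% of all tested gene models lower and 1.04% higher in mature than in pea-size W. Between the genotypes at pea-size it called 4.27% lower and 6.63% higher in S. At pea-size DESeq2 gave 8 members no adjusted p. The median log2FC of the members in S was -2.34, and -3.35 without S maturity replicate 1. That of evm.model.chr5.582 was called only without that library (-4.89), and that of evm.model.chr9.273 under every alternative run. DESeq2 gave evm.model.chr5.582 no adjusted p. The summed mature S level was 16.01% of pea-size S, 19.03% with TMM and 6.68% to 21.2% without 1 S library. The cause of these differences was not tested. The median log2FC of all tested gene models in S was 0.07 with TMM and -0.07 with library totals alone. Within a genotype, deviations of libraries with the same replicate number had correlations of -0.067 to 0.021. They gave no sign that the numbers pair the stages, and pairing across the genotypes was not tested. With a replicate block 24 members were called in S (2.44% of all tested gene models), 16 for the interaction (0.895% of all) and 33 at maturity (2.60% of all). Depth limits the members near 5 CPM, of which that of rank 62 had 0 to 3 counts in each mature S library.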
